A study of Mus musculus with 8 samples.

Results

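The genes described here are a set of 9 that are best known from fetal tissue and from highly plastic progenitor cells: Hmga2, Igf2bp2, Igf2bp3, Lin28b, H19, Igf2, Plac8, Tm4sf4 and Slc4a11. They were found by their symbols among the 23284 genes of the table, and all 9 have a row, 8 of them with at least 1 count. Polyadenylated RNA was sequenced from mouse alveolar organoids, cultures of lung cells grown in drops of matrigel. All cells came from mice with an Sftpc-eGFP transgene, in which Sftpc, the surfactant protein C gene of alveolar type 2 (AT2) cells, drives enhanced green fluorescent protein (GFP). The organoid lines, named SN2285, SN2286, SN2293 and SN2294, were each sorted into GFP-positive and GFP-negative cells, 1 library per sort and line, so both groups carry the transgene and no other treatment is given. The labels give neither the age of the mice nor whether the lines stem from separate animals, so the p-values measure the spread between these lines.

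Several of these genes belong to one regulatory circuit. LIN28B is an RNA-binding protein that blocks the maturation of let-7 microRNAs, and let-7 in turn represses Hmga2, the Igf2bp genes and Lin28b itself. HMGA2 is an architectural chromatin protein that binds AT-rich DNA, while IGF2BP2 and IGF2BP3 bind messenger RNAs, that of Igf2 among them, and affect their stability and translation. Igf2, an insulin-like growth factor, and H19, a long noncoding RNA, are neighbours that are imprinted in opposite ways, Igf2 being expressed from the paternal and H19 from the maternal copy. Plac8, Tm4sf4 and Slc4a11 encode a small cysteine-rich protein, a membrane protein of the L6 family and an ion transporter, and serve as markers of high-plasticity states in mouse lung tumours.

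The let-7 link can be read in the sequences. All 9 mature let-7 names looked up (let-7a to let-7g, let-7i and miR-98) shared the seed GAGGUAG, and the H19 transcript is the host of another microRNA, miR-675. In the mature sequences from RefSeq (GRCm38.p6) below, capitals mark the seed, bases 2 to 8.
mmu-let-7a-5p: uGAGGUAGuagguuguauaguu
mmu-miR-98-5p: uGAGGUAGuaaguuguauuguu
mmu-miR-675-5p: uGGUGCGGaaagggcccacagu
mmu-miR-675-3p: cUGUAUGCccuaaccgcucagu

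The seed match CTACCTC, searched on the sense strand of the longest annotated 3′ untranslated region of each gene (GENCODE M21, GRCm38), occurred in 1879 of 20985 genes, or 8.95%. It occurred in all 4 members of the chromatin and RNA-binding group, 4 times each in Hmga2 and Lin28b and once each in Igf2bp2 and Igf2bp3. Only 12 genes in all held 4 matches or more. It did not occur in Igf2, Plac8, Tm4sf4 or Slc4a11, whose regions were 3050, 275, 586 and 321 bases long, against 1784 to 4445 bases in the 4 genes with a match. The match that is followed by an A in each gene is shown with its surroundings, the match in capitals. A match is a description of the letters and not evidence of repression.
Hmga2, chr10:120364213-120364242, minus strand: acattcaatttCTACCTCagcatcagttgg
Lin28b, chr10:45381011-45381040, minus strand: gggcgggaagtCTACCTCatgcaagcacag
Igf2bp2, chr16:22059462-22059491, minus strand: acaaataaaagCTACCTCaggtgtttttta
Igf2bp3, chr6:49086776-49086805, minus strand: tttttactcaaCTACCTCaggtattcagta

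Depth was 11202576 to 16032633 counts per GFP-positive library and 5910344 (line SN2294) to 15583384 per GFP-negative one. Levels below are in CPM, the count scaled to the size of its library with the TMM factor of edgeR, and a log2 fold change is GFP-positive over GFP-negative. The AT2 markers went with the sort labels: all 9 listed were called higher in GFP-positive cells, and their summed level there was 770 to 1075% of that of the GFP-negative cells of the same line. Sftpc controls the reporter, so its own difference was built into the groups.

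Of the 9 members, 7 passed the filter on low counts, and all 7 were lower in GFP-positive cells at a false discovery rate (FDR) of 0.05 in edgeR's quasi-likelihood test. Over the 12848 genes tested, 40.7% were called, 21.8% lower and 18.9% higher. In each of the 7, every GFP-positive library lay below every GFP-negative library, which was so for 21.6% of all genes tested. The sizes fell into a wide range. Igf2bp2 was 1.53-fold lower, Igf2bp3, Slc4a11 and Hmga2 were 3.22-fold, 3.23-fold and 3.75-fold lower, and H19, Igf2 and Plac8 were 17.9-fold, 30.7-fold and 42.6-fold lower. These last 3 passed a log2 fold change of −4, as did 3.04% of all genes tested. H19, Igf2 and Plac8 had at most 3 counts in any GFP-positive library and met the filter only through their GFP-negative libraries. A gene so low in GFP-positive cells could be tested only where it was higher in GFP-negative ones. The direction of these 3 is therefore not a separate result. Lin28b and Tm4sf4 were at or next to 0 in both sorts. In bulk libraries, fewer cells that carry a transcript and less of it per cell cannot be told apart.

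**Figure D1:**
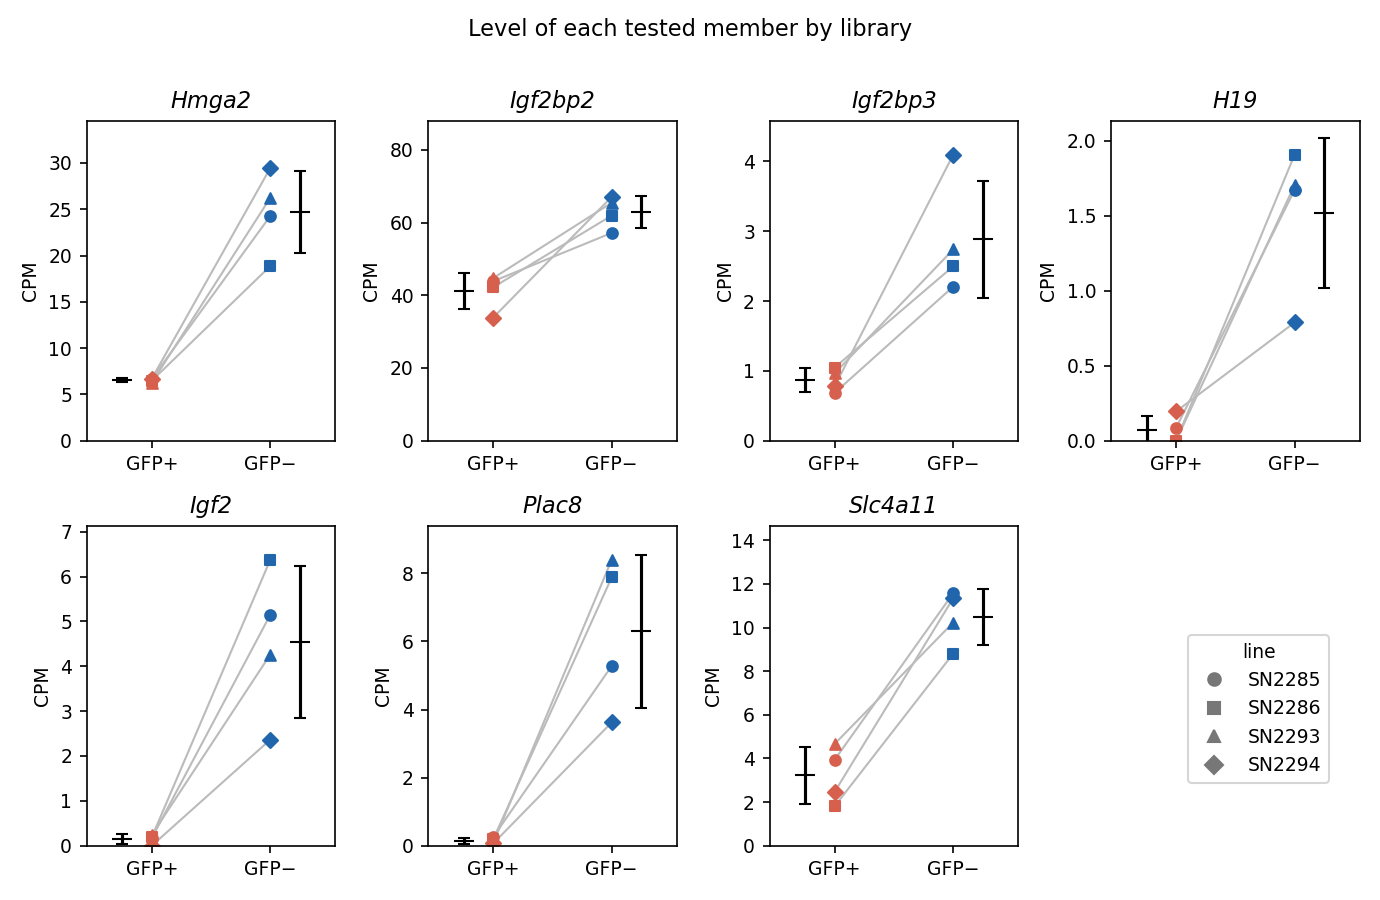
Level in CPM (vertical axes, each starting at 0) of the 7 members that passed the filter, in the GFP-positive (left, red) and GFP-negative (right, blue) libraries, with the libraries of a line joined and the mean ± SD at the side. All 28 joining lines point to a higher GFP-negative value, from the narrow gap of Igf2bp2 to the near-zero GFP-positive values of H19, Igf2 and Plac8.

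Hmga2 was at 6.68, 6.48, 6.28 and 6.70 CPM in the GFP-positive libraries of lines SN2285, SN2286, SN2293 and SN2294. In the GFP-negative libraries of the same lines it was at 24.3, 18.9, 26.2 and 29.5 CPM. The GFP-positive values were close together and the GFP-negative ones spread 1.56-fold, with no overlap between the groups (edgeR log2 fold change −1.91, SE 0.15, adjusted p = 1.1e-06). The GFP-positive level stayed clearly above 0, at 22.7 to 34.4% of that of the same line's GFP-negative cells. A related row, Hmga2-ps1, a pseudogene by its name, has a row of its own with 27 counts in GFP-positive libraries and 31 in GFP-negative ones, against 327 and 1268 for Hmga2, and reads shared between the copies could be counted under either. In the GRCm38 annotation an antisense gene, 1700006J14Rik, overlaps exons of Hmga2 on the opposite strand. The paralog Hmga1, which encodes the other HMGA protein, averaged 0.708 ± 0.33 CPM in GFP-positive libraries and 1.02 ± 0.158 CPM in GFP-negative ones and was not called (edgeR log2 fold change −0.50, SE 0.38, adjusted p = 0.33).

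Igf2bp2, the most deeply counted of the 9, was at 43.9, 42.2, 44.7 and 33.9 CPM in GFP-positive libraries and at 57.2, 61.9, 65.5 and 67.1 CPM in GFP-negative ones of lines SN2285, SN2286, SN2293 and SN2294 (edgeR log2 fold change −0.61, SE 0.10, adjusted p = 3.9e-04). Line SN2294 held both the lowest GFP-positive and the highest GFP-negative value, so its gap was the widest. Without that line, with line added to the model, the log2 fold change was −0.49 and the call held (adjusted p = 9.8e-06, edgeR).

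Igf2bp3, the close relative whose protein is typical of fetal tissue and of tumours, was counted far less often. It had 8, 11, 12 and 12 counts in GFP-positive libraries and 33, 38, 45 and 26 counts in GFP-negative ones, which is 0.870 ± 0.166 against 2.88 ± 0.836 CPM. The lowest GFP-negative value, 2.21 CPM, was above the highest GFP-positive one, 1.05 CPM (edgeR log2 fold change −1.69, SE 0.30, adjusted p = 8.1e-04). Its exons overlap those of Malsu1 on the opposite strand, and here as at Hmga2 the reads of the overlap cannot be assigned without strand. Malsu1, a gene of mitochondrial ribosome assembly, listed in the table as 2410003K15Rik, was at 13.8 ± 2.02 CPM in GFP-positive libraries and 15.1 ± 1.31 CPM in GFP-negative ones (edgeR log2 fold change −0.13, adjusted p = 0.48). Igf2bp1, the remaining family member, did not pass the filter, with 0.170 ± 0.128 CPM in GFP-positive libraries and 0.219 ± 0.268 CPM in GFP-negative ones. Of the counts of the 3 Igf2bp genes together, Igf2bp2 took 97.1 to 97.7% in the GFP-positive libraries and 94.3 to 96.3% of them in the GFP-negative libraries. These are shares of counts, in which gene length was not taken into account.

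Lin28b had 1 count in all 4 GFP-positive libraries together, in line SN2294, and 1 in the GFP-negative ones, in the same line. With 2 counts in all, no difference between the sorts could be looked for. The exact Poisson intervals were 0.000481 to 0.106 CPM in GFP-positive libraries and 0.000502 to 0.11 CPM in GFP-negative ones, taken over the summed totals and covering counting error only. Its paralog Lin28a, which acts on let-7 as well, had a single count in the 8 libraries. Transcripts of both LIN28 genes were not detectable above 1 count per library at this depth.

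Rows for 12 let-7 family hairpins gave little more. Of these, 6 had 0 counts everywhere, the highest count in any library was 14, and none passed the filter. Libraries of polyadenylated RNA do not measure mature microRNAs, so let-7 itself was not measured here, and the row for the miR-675 hairpin inside H19 was at 0 in all libraries.

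**Figure D2:**
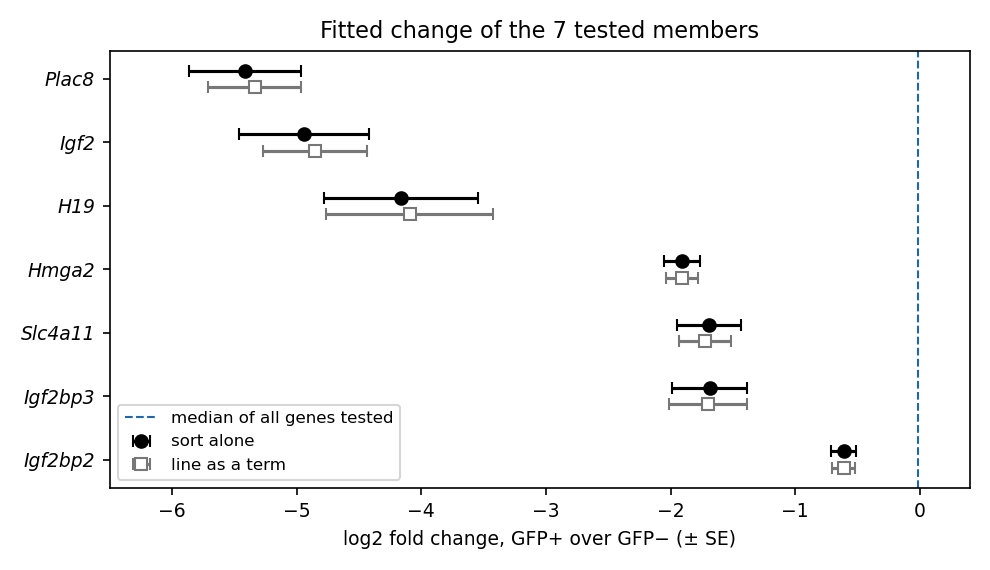
Log2 fold change, GFP-positive over GFP-negative (horizontal axis, bars ± SE), of the 7 tested members, fitted with the sort alone (filled circles) and with line as a term (open squares). Plac8, Igf2 and H19 lie between −5.41 and −4.16, Hmga2, Slc4a11 and Igf2bp3 between −1.91 and −1.69, and Igf2bp2 at −0.61, while the median of all genes tested is −0.01.

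The imprinted pair was almost absent from GFP-positive cells. Igf2 had 2, 2, 3 and 0 counts in the GFP-positive libraries of lines SN2285, SN2286, SN2293 and SN2294, and 77, 97, 70 and 15 in their GFP-negative libraries, or 0.151 ± 0.105 against 4.54 ± 1.69 CPM (edgeR log2 fold change −4.94, SE 0.52, adjusted p = 1.4e-05). H19 had 1, 0, 0 and 3 counts in GFP-positive libraries and 25, 29, 28 and 5 in GFP-negative ones, or 0.0702 ± 0.0925 against 1.52 ± 0.497 CPM (edgeR log2 fold change −4.16, SE 0.62, adjusted p = 1.9e-04). Both genes were lowest among GFP-negative libraries in line SN2294, at 2.36 CPM for Igf2 and 0.788 CPM for H19, and highest in line SN2286. The groups did not overlap for either gene.

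With so few reads the size of the gap is loosely fixed. Summed over the lines, GFP-positive cells held 2.86% of the GFP-negative level of Igf2 (95% exact interval 1.14 to 5.99%) and 4.87% of that of H19 (1.30 to 12.9%), intervals that cover counting error only. For H19 a single library mattered: without the GFP-positive library of line SN2294, which gave 3 of its 4 GFP-positive counts, the log2 fold change was −5.35 (adjusted p = 2.1e-04, edgeR). After thinning all libraries to the depth of the shallowest one, that of Igf2 was −4.31 and H19 no longer passed the filter. In the GRCm38 annotation the exons of Igf2 overlap the protein-coding Gm49394 on the same strand and the antisense gene Igf2os, and those of H19 overlap 2 noncoding RNA genes on the opposite strand, so reads there could belong to either gene. The antisense transcript of Igf2, listed as Igf2as, had 0 counts in GFP-positive libraries and 4 in GFP-negative ones.

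Plac8 was counted mostly in GFP-negative cells. It had 3, 2, 1 and 1 counts in the GFP-positive libraries of lines SN2285, SN2286, SN2293 and SN2294, and 79, 120, 138 and 23 in their GFP-negative libraries, which is 0.148 ± 0.0916 against 6.30 ± 2.25 CPM (edgeR log2 fold change −5.41, SE 0.45, adjusted p = 2.0e-06). GFP-positive cells held 2.06% of the GFP-negative level (95% exact interval 0.823 to 4.29%), an interval that overlaps those of Igf2 and H19. Within line SN2285 Igf2 had the wider gap, at 3.33% of the GFP-negative level against 4.87% for Plac8, and the order of these 3 genes was not tested. Line SN2294 was the lowest line in both sorts, and line SN2293 the highest among the GFP-negative libraries. The related genes Plac8l1 and Cnfn did not pass the filter, with 0 and 0.0214 CPM in GFP-positive libraries and 0 and 0.0788 CPM in GFP-negative ones on average.

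Slc4a11 kept a measurable level in both sorts. It was at 3.94, 1.81, 4.67 and 2.47 CPM in GFP-positive libraries and at 11.6, 8.80, 10.2 and 11.3 CPM in GFP-negative ones of lines SN2285, SN2286, SN2293 and SN2294 (edgeR log2 fold change −1.69, SE 0.26, adjusted p = 2.5e-04). The GFP-positive values differed 2.58-fold between lines and the GFP-negative ones 1.31-fold, and in line SN2293 the GFP-positive cells stood nearest to the GFP-negative ones, at 45.6% of their level. Among the 9 other genes of the Slc4 family of bicarbonate and borate transporters, 5 were tested. Slc4a4, a sodium bicarbonate cotransporter gene, rose (edgeR log2 fold change 0.53, SE 0.11, adjusted p = 0.0027), while Slc4a3, an anion exchanger gene, fell (−0.98, SE 0.23, adjusted p = 0.0048, edgeR). Slc4a2 (−0.05), Slc4a7 (0.25) and Slc4a8 (0.44) were not called. Slc4a8 was called once line was a term (0.45), and with scaling by library size alone Slc4a2 was called lower (−0.20). Slc4a1, Slc4a5, Slc4a9 and Slc4a10 did not pass the filter.

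Tm4sf4 had 0 counts in all 8 libraries. A count of 0 allows up to 3 counts, which is 0.057 CPM over the GFP-positive libraries and 0.0594 CPM over the GFP-negative ones, so no difference could be looked for. Of its relatives, Tm4sf1, an L6 family gene known from tumour cells and endothelium, was detected and fell, at 0.289 ± 0.152 CPM in GFP-positive against 5.82 ± 2.08 CPM in GFP-negative libraries (edgeR log2 fold change −4.22, SE 0.40, adjusted p = 6.3e-06). Tm4sf1 had at most 6 counts in any GFP-positive library and met the filter only through its GFP-negative libraries. Its direction is therefore not a separate result. Tm4sf5, Tm4sf19 and Tm4sf20 were at 0 in GFP-positive libraries and averaged at most 0.135 CPM in GFP-negative ones. The placental genes Plac1 and Plac9a (listed as Plac9), which only share the name with Plac8, did not pass the filter.

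Both sorts also differed in markers of other cell types, and these values stand beside the changes of the members. The summed level of 8 basal cell markers, among them Krt5 and Trp63, was 52.8 to 103 CPM in GFP-positive libraries and 1943 to 2527 CPM in GFP-negative ones, or 2.72 to 4.06% within a line, and all 8 were called lower. That of 8 fibroblast markers was 10.8 to 20.2 CPM in GFP-positive libraries and 380 to 695 CPM in GFP-negative ones, or 2.48 to 4.39%. Of these, 6 were tested and all 6 were called lower, and Postn was at 0 in GFP-positive libraries. The pooled percentages of Plac8, Igf2 and H19 lay in or near this range, with intervals that overlap it, while those of Hmga2, Igf2bp3 and Slc4a11 were 27.3, 32.1 and 31.2%, and that of Igf2bp2 was 65.2%. Over all genes tested 21.8% were called lower. The basal markers Dsg3 and Krt14 averaged 0.0617 and 0.195 CPM in GFP-positive libraries. Genes so low there could be tested only where they were higher in GFP-negative cells, so the direction of Dsg3 and Krt14 is not a separate result. The part that basal cells and fibroblasts had in the members' changes was not tested.

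Leukocytes, which are known to carry Plac8, were represented by 10 markers, at 29.9 to 176 CPM in GFP-positive libraries and 397 to 475 CPM in GFP-negative ones. Most of this was Lyz2, which lung epithelium also expresses, and Cd68. The other 8 markers, a selection made after the values were seen, summed to 0.0857 to 0.563 CPM in GFP-positive libraries, to 0 (SN2285), 0.657 (SN2286) and 0.548 CPM (SN2293) in 3 of the GFP-negative libraries, and to 46.0 CPM in that of line SN2294. Plac8 was lowest among the GFP-negative libraries in that line, at 3.62 CPM against 5.28 to 8.40 CPM in the other 3. Without that library its log2 fold change was −5.58 (adjusted p = 1.8e-06, edgeR). The part that leukocytes had in the change of Plac8 was not tested.

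**Figure D3:**
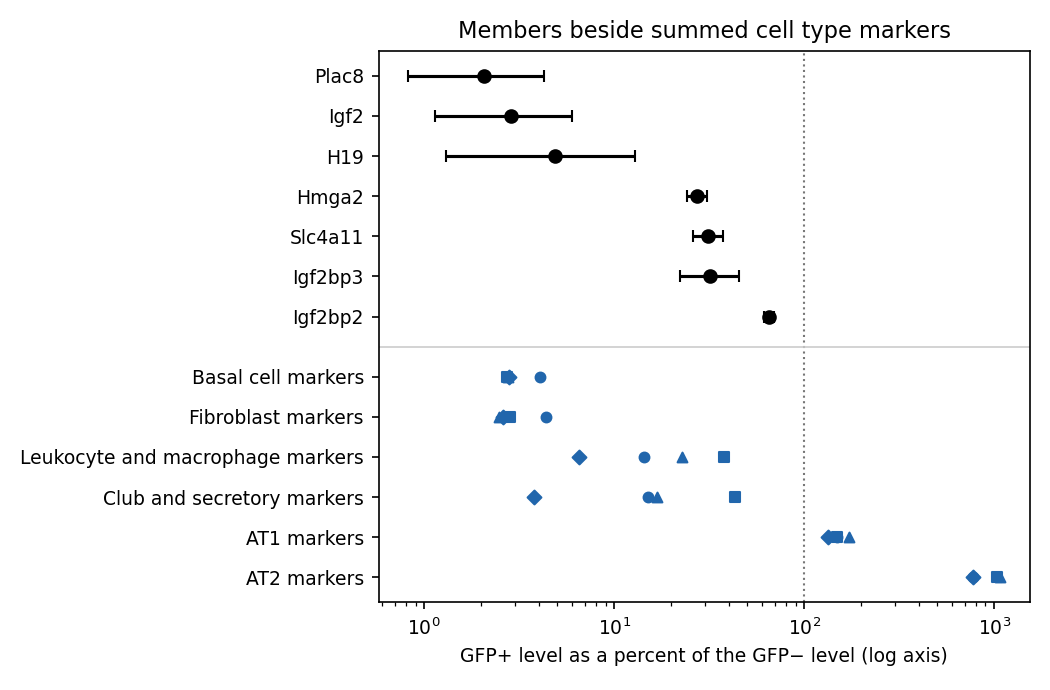
Level in GFP-positive cells as a percent of that in GFP-negative cells (horizontal log axis). Upper part: the 7 tested members from counts summed over 4 lines, with 95% exact intervals for counting error; lower part: summed cell type markers, 1 symbol per line with the shapes used for lines SN2285 (circle), SN2286 (square), SN2293 (triangle) and SN2294 (diamond). Plac8, Igf2 and H19 lie at 2.06 to 4.87%, close to where the basal and fibroblast sums lie, and the other members at 27.3 to 65.2%.

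The sum of 8 club and secretory markers was 58.1 to 1128 CPM in GFP-positive libraries and 1532 to 2623 CPM in GFP-negative ones, or 3.79% (line SN2294) to 43.0% (line SN2286) within a line. Of the 7 tested, 3 were called lower, Cyp2f2 (log2 fold change −5.14), Cbr2 (−5.65) and Hp (−3.83), and none higher. That of 8 AT1 markers was 2265 to 3176 CPM in GFP-positive libraries and 1525 to 2134 CPM in GFP-negative ones. Aqp5 alone averaged 1598 CPM in GFP-positive libraries and 1193 CPM in GFP-negative ones. Of the 8 AT1 markers, 5 were called higher and 1, Pdpn, lower (−1.94), and 2, Hopx and Cav1, were not called. The 6 smooth muscle and pericyte markers summed to 8.32 to 28.5 CPM in GFP-positive libraries and 89.3 to 146 CPM in GFP-negative ones. All 3 that were tested were called lower, Des (−5.40), Acta2 (−3.31) and Notch3 (−2.70). The 7 ciliated cell markers summed to 420 to 549 CPM in GFP-positive libraries and 357 to 424 CPM in GFP-negative ones, most of it Tubb4b, which many cell types express. Of the 3 tested, Tubb4b was called higher (0.38), Foxj1 lower (−3.33), and Rsph1 (0.18) was not called. The untested Ccdc153, Dynlrb2, Tekt1 and Mcidas averaged lower in GFP-positive libraries, at no more than 0.909 CPM in either sort. Of the 5 mesothelial markers Msln made up nearly all of 388 to 667 CPM in GFP-positive libraries and 346 to 609 CPM in GFP-negative ones, and Upk3b and Calb2 were at 0. Endothelial markers summed to at most 0.428 CPM in GFP-positive libraries and 1.10 CPM in GFP-negative ones, gastric and intestinal ones to at most 2.48 and 2.83 CPM, and neuroendocrine ones to at most 1.77 and 4.72 CPM. Of the neuroendocrine markers 2 were tested, and Resp18, at 0 in GFP-positive libraries and 1.42 CPM in GFP-negative ones on average, was called lower. Des, Acta2, Foxj1 and Resp18 averaged at most 0.495 CPM in GFP-positive libraries. Genes so low there could be tested only where they were higher in GFP-negative cells, so the direction of these calls is not a separate result. Over all genes tested 18.9% were called higher and 21.8% lower. The part of these cell types in the members' changes was not tested.

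The other genes of the LIN28 and let-7 pathway mostly did not move with the members. Of 25 tested, 2 were called higher and 5 lower in GFP-positive cells, a median log2 fold change of −0.02 against −0.01 for all genes tested. Among all genes tested, 18.9% were called higher and 21.8% lower. Ccnd2, a cyclin gene, fell (edgeR log2 fold change −1.42, SE 0.08, adjusted p = 7.7e-08), as did Zbtb5 (−0.47) and the oncogene Myc (−0.70). Mycn, the MYC relative of embryonic lung tips, rose 5.21-fold, to 14.7 ± 0.426 CPM in GFP-positive against 2.90 ± 0.813 CPM in GFP-negative libraries (edgeR log2 fold change 2.38, SE 0.19, adjusted p = 1.5e-06). The remaining calls, named with their values known, were Tut4 (−0.49) and Nr6a1 (−0.55) on the lower side and Cdc25a (0.44) on the higher. The microRNA processing gene Dgcr8 (−0.02) and the cyclin gene Ccnd1 (0.02) were not called. A fit with line as a term called 7 genes of this list higher and 5 lower, against 2935 higher and 3234 lower of all 12848 genes. With scaling by library size alone 1 was called higher and 9 lower, against 1505 higher and 4199 lower of all genes.

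The IGF system leaned to the GFP-negative side. Of 12 tested genes of the system other than Igf2 (ligands, receptors, binding proteins and their partners), 6 were called lower and none higher in GFP-positive cells, with a median log2 fold change of −0.58. At the FDR used, 21.8% of all genes were called lower. Igf1, the other ligand, was at 0.338 ± 0.149 CPM in GFP-positive libraries and 15.3 ± 5.95 CPM in GFP-negative ones (edgeR log2 fold change −5.52, SE 0.42, adjusted p = 1.5e-06). Pappa, a protease that frees IGF from its binding proteins (−5.04), the binding protein gene Igfbp3 (−2.04) and the signalling receptor gene Igf1r (−1.11) fell as well. Igf1 had at most 5 counts in any GFP-positive library, and Pappa had 2 over all of them. Both are among the 6 calls but met the filter only through their GFP-negative libraries, so their direction is not a separate result. The value of Pappa was −5.74 with line SN2293 left out and line as a term (adjusted p = 2.1e-04, edgeR). The insulin receptor gene Insr (0.01) and Igf2r (0.01), whose product takes up IGF2 for degradation, were not called. Igf2r was at 649 ± 15.2 CPM in GFP-positive libraries and 646 ± 31.3 CPM in GFP-negative ones. A fit with line as a term called 1 gene of the list higher and 8 lower, against 2935 higher and 3234 lower of all 12848 genes.

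Among other imprinted genes more were called higher than lower, unlike Igf2 and H19. Of 22 other imprinted genes tested, 8 were called higher and 3 lower in GFP-positive cells, with a median log2 fold change of 0.19. The shares over all genes tested were 18.9% higher and 21.8% lower. The genes with the smallest p included all 3 genes of the Dlk1 and Meg3 domain that passed the filter, in which the paternal copy gives the Notch-like protein DLK1 and the maternal copy the noncoding RNAs Meg3 and Rian. Dlk1 had 78, 90, 83 and 67 counts in the GFP-positive libraries of lines SN2285, SN2286, SN2293 and SN2294 and 1, 0, 2 and 3 in their GFP-negative libraries (edgeR log2 fold change 5.70, SE 0.53, adjusted p = 4.7e-06). Meg3 was at 21.5 ± 4.68 CPM in GFP-positive libraries and 1.14 ± 0.504 CPM in GFP-negative ones (edgeR log2 fold change 4.25, SE 0.29, adjusted p = 6.3e-07). Rian was at 20.3 ± 4.59 CPM in GFP-positive libraries and 1.11 ± 0.728 CPM in GFP-negative ones (edgeR log2 fold change 4.38, SE 0.31, adjusted p = 7.6e-07).

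Every GFP-positive library was above every GFP-negative one for these 3 genes, and the share of all genes with this ordering was not counted. For Igf2 and H19 the ordering was the reverse. Dlk1 had at most 3 counts in any GFP-negative library and met the filter only through its GFP-positive libraries. Its direction, like that of Igf2 and H19, is therefore not a separate result. With the GFP-negative library of line SN2294 left out, the log2 fold change of Dlk1 was 6.48 (adjusted p = 4.4e-06, edgeR). Nnat, a gene expressed from the paternal copy, rose too (2.87, adjusted p = 1.0e-04, edgeR). Ndn (−1.87), Slc22a18 (−1.76) and Impact (−0.65) were the 3 called lower, a naming made with their values known. Kcnq1ot1 (0.12) and Igf2r were not called.

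**Figure D4:**
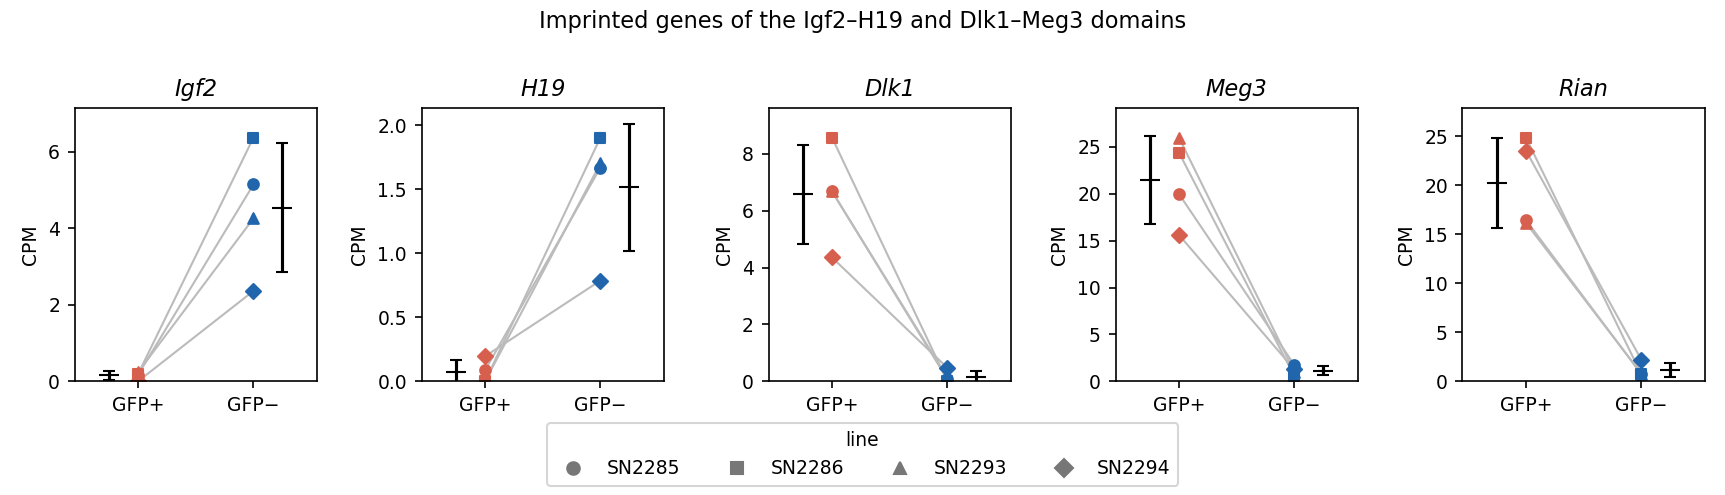
Level in CPM (vertical axes, each starting at 0) of Igf2 and H19 and of Dlk1, Meg3 and Rian in GFP-positive (left, red) and GFP-negative (right, blue) libraries, with the libraries of a line joined and the mean ± SD at the side. Igf2 and H19 are near 0 in GFP-positive cells, and Dlk1, Meg3 and Rian are near 0 in GFP-negative cells.

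Genes of the embryonic lung tip, the progenitor zone at the ends of the growing airways, moved both ways. Of 22 tested, 12 were called higher and 5 lower in GFP-positive cells (median log2 fold change 0.33). With scaling by library size alone 10 were called higher and 5 lower, against 1505 higher and 4199 lower of all 12848 genes. Shares in the main fit follow. Over all genes tested 18.9% were called higher and 21.8% lower. Id2, an inhibitor of DNA binding and tip marker, rose (edgeR log2 fold change 1.98, SE 0.09, adjusted p = 2.3e-08), as did the forkhead genes Foxp2 (1.38) and Foxa2 (1.95). The 5 genes that fell were the forkhead gene Foxa1 (−1.64, SE 0.09, adjusted p = 8.1e-08, edgeR) and 4 that are named here after their values were seen. These were the tip markers Sox9 (−1.45, adjusted p = 0.014, edgeR) and Etv4 (−0.82, adjusted p = 2.1e-05, edgeR), the FGF feedback gene Dusp6 (−0.53) and Sox2 (−4.49, adjusted p = 5.0e-04, edgeR). Sox2 is a gene of the airway stalk that the list counts with the tip genes. The remaining genes called higher, also named with their values known, were Mycn (2.38), Bmp4 (1.48), Etv5 (0.61), Fgfr2, Nkx2-1, Gata6, Foxm1, Spry2 and Foxp1. Lgr5 (0.01) and Foxp4 (−0.02) were not called. Several of these genes, Foxa2 among them, are also expressed in AT2 cells.

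The wider group of high-plasticity and alveolar transitional genes had calls in both directions. Of 22 tested, 10 were called higher and 6 lower (median log2 fold change 0.14), against 18.9% higher and 21.8% lower over all genes tested. With scaling by library size alone 6 were called higher and 7 lower, against 1505 higher and 4199 lower of all 12848 genes. The keratin genes Krt7 (edgeR log2 fold change 1.06, SE 0.13, adjusted p = 6.5e-05) and Krt8 (0.56) and the ephrin receptor gene Epha2 (0.83) rose, and Sfn, a p53 target that encodes the protein 14-3-3 sigma, fell (−1.28, SE 0.08, adjusted p = 1.6e-07, edgeR). Msln (0.07) and the claudin gene Cldn4 (0.15) were not called. With line as a term 10 were called higher and 8 lower, against 2935 higher and 3234 lower of all genes.

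**Figure D5:**
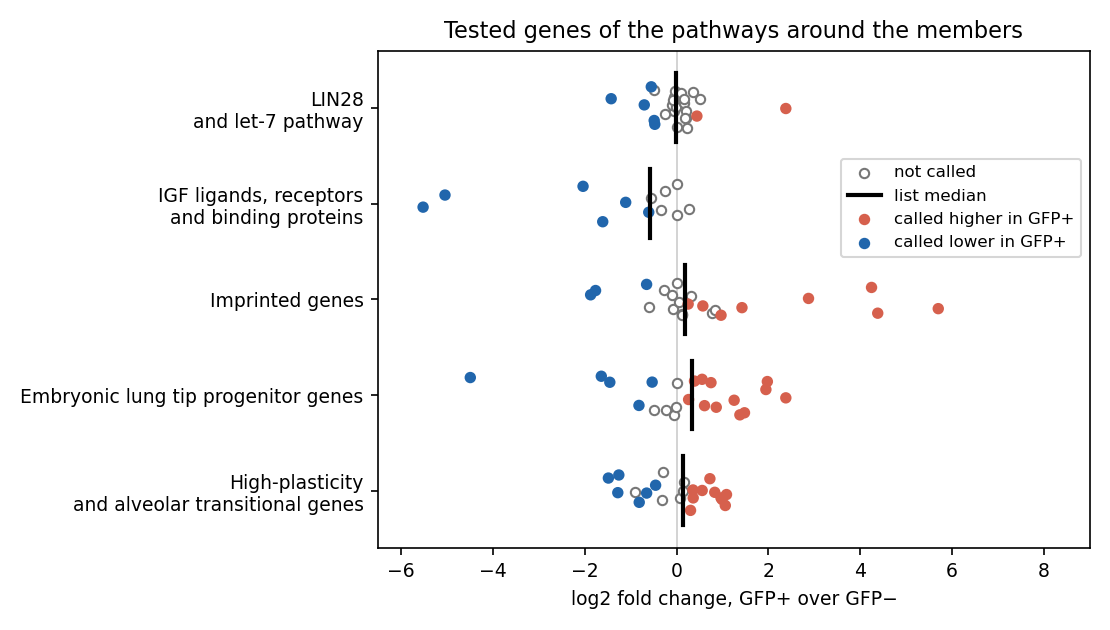
Log2 fold change, GFP-positive over GFP-negative (horizontal axis), of each tested gene of the 5 lists around the members, 1 point per gene, filled where the gene was called at an FDR of 0.05 (red higher, blue lower in GFP-positive cells), with the list median as a black bar. The IGF list has its median at −0.58 and the other 4 lists lie between −0.02 and 0.33.

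For each tested member the 3 genes with the most similar profile were sought, by the root mean square difference of log2 CPM over the 8 libraries, each gene centred on its own mean. They were Plat, Cerk and Pcdh7 for Hmga2 (0.139 to 0.148 log2 units) and Nr6a1, Repin1 and Tet3 for Igf2bp2 (0.050 to 0.0749). They were A730017L22Rik, Syk and Kctd12 for Igf2bp3 (0.11 to 0.176) and Fggy, Cplx2 and Wnt6 for Slc4a11 (0.189 to 0.231). For the members that were close to 0 in GFP-positive cells the nearest genes were farther off: Gli2, Ces2f and Unc5c for H19 (0.334 to 0.378), Zfp750, Barx2 and Rhov for Igf2 (0.243 to 0.313) and Sulf1, Gata3 and Sox15 for Plac8 (0.242 to 0.293). Nr6a1, the nearest gene to Igf2bp2, stood in the list of the LIN28 and let-7 pathway. The 3 members with near-zero GFP-positive levels had no gene in common among their nearest. These members had at most 3 counts in any GFP-positive library, and the part of counting error in their larger distances was not tested.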

How the data were processed

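The authors deposited raw read counts per gene symbol, 1 column per library, without normalization. Per the submitters' processing notes cutadapt 1.16, STAR 2.5.3a, featureCounts and Subread were used with the genome build mm9. The sources used here do not give the annotation, the strandedness or how multi-mapping reads were handled. Per the labels' protocols, 300 ng of RNA and 14 PCR cycles went into each library; reads without molecular identifiers are not independent molecules.

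Counts were analysed in R 4.3.3 with edgeR 4.0.16: filterByExpr (minimum count 10, minimum total 15), TMM factors, the sort as the only term, and the robust two-sided quasi-likelihood test. P-values were adjusted by Benjamini and Hochberg over the 12848 genes tested and called when below 0.05. The SE is the size of the log2 fold change divided by the square root of F. The ± values are SD over 4 libraries. Alternatives were line as a term, DESeq2 1.42.0, upper quartile factors, library size alone, no filter, thinning, and leaving out libraries or lines.

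The libraries are paired by line: after removal of group means, both libraries of a line correlated at r = 0.37, 0.46, 0.32 and 0.40 across genes. The members and lists were chosen with earlier results of these data known. Named are the members, in each pathway list up to 4 called genes with the smallest p and 2 with the largest, the family genes, and the 3 nearest profiles. Reference sequences are of GRCm38, another build than mm9, and were matched by symbol.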

Additional observations from a re-analysis of the deposited data

Results flagged for a closer look

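Of 40 groups of 4 libraries examined (members, summed markers and depth), 3 held a library far from the others, and chance marks about 1 in 20. The GFP-negative library of line SN2294 had 5910344 counts, against 14408203 to 15583384 in the other GFP-negative libraries, which limits its values for H19 (5 counts) and Igf2 (15 counts). The basal markers summed to 102.6 CPM in the GFP-positive library of line SN2285, against 52.8 to 59.1 CPM in the other GFP-positive libraries. The club and secretory markers summed to 2623 CPM in the GFP-negative library of line SN2286, against 1532 to 1681 CPM in the other GFP-negative libraries. The part of these libraries in the members' values was not tested beyond leaving each out.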

How the results depend on the processing

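Under every alternative run, each tested member kept its direction and its call. For H19, Igf2 and Plac8, every alternative that filtered on low counts shares the limit given above. Their kept direction there is not a separate result. There were 18 alternatives for 6 members and 17 for H19, which did not pass the filter after thinning, so that 6 members were then lower. The log2 fold changes ran from −2.06 to −1.82 for Hmga2, −0.76 to −0.49 for Igf2bp2, −1.85 to −1.46 for Igf2bp3, −5.53 to −3.64 for H19, −5.30 to −4.31 for Igf2, −5.80 to −4.97 for Plac8 and −1.97 to −1.51 for Slc4a11. With line as a term (replicate block) 2935 genes were called higher and 3234 lower, and all 7 members were lower. The paired fit changed no call of a member. Under scaling by library size alone the median over all genes was −0.16 in place of −0.01, and calls became 1505 higher and 4199 lower in place of 2430 and 2801. Tm4sf4 had no counts to fit under any setting, and no fold change is given for Lin28b, which had 2 counts in all. With a prior count of 0.5 in place of 2, the log2 difference within a line moved by more than 1 SD between lines in 8 of 28 cases, all of them of H19, Igf2 or Plac8.

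Named genes with a change near 0 took either sign. Leaving out 1 library at a time gave −0.11 to 0.074 for Dgcr8, −0.012 to 0.045 for Ccnd1, −0.019 to 0.068 for Insr, −0.0086 to 0.043 for Igf2r, −0.16 to 0.41 for Kcnq1ot1, −0.13 to 0.13 for Lgr5, −0.050 to 0.028 for Foxp4 and −0.085 to 0.20 for Msln. Library size alone gave −0.14 for Ccnd1, −0.14 for Insr, −0.14 for Igf2r, −0.027 for Kcnq1ot1, −0.14 for Lgr5 and −0.079 for Msln. Upper quartile factors gave −0.0004 for Insr, −0.0012 for Igf2r and −0.0007 for Lgr5, and thinning 0.0062 for Dgcr8, −0.0086 for Ccnd1 and −0.036 for Lgr5. With line as a term Lgr5 was at −0.021. With line as a term and 1 line left out, Dgcr8 was at 0.047 without SN2285, Insr at −0.014 without SN2285 and −0.0037 without SN2286, Igf2r at −0.0018 without SN2293, Lgr5 at −0.14 without SN2286 and −0.066 without SN2294, and Foxp4 at 0.049 without SN2286 and 0.0062 without SN2294. None of these values was called, and the cause was not tested.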
